A study of Mus musculus with 2 samples.

Results

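The Schlafen genes of the mouse were followed across the cell types of CD45+ sorts from MC38 tumors, a transplanted colon carcinoma line. The members are the 7 genes Slfn1, Slfn2, Slfn3, Slfn4, Slfn5, Slfn8 and Slfn9, taken by their symbols from 32285 genes counted. Their choice was made with the difference between the irradiated and the non-irradiated library already known, so the levels below are a description of these cells and no test of that difference. The samples were 1 Control library from non-irradiated tumors and 1 IR library from tumors that had received a single dose of 20 Gy and were collected 4 days later. All mice were WT, and by the study's methods they were young adults of both sexes and the tumors of each library were pooled. With 1 library a group there was no replicate and no test, and every interval covers counting error only, so each difference compares these libraries and not irradiation as such.

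Schlafen proteins were named for the arrest of growth seen when the founding members were expressed in thymocytes. Many of the genes are induced by type I interferon, and the family is divided by protein length into a short, an intermediate and a long group. The long members carry a helicase-like region that the shorter ones lack, Slfn2 is needed to keep T cells and monocytes quiescent, and Slfn4 is known as an interferon-induced gene of myeloid cells that marks a suppressive myeloid population in the stomach.

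The Control library held 4679 cells with at least 1000 UMIs and at most 25% mitochondrial UMIs, and the IR library 3411, with medians of 7302 and 8266 UMIs. A UMI is a molecular tag that counts 1 captured RNA molecule, and since only the 3′ end is read, levels are not divided by gene length, folds are given within a gene, and a member's share of the family is a share of captured molecules. Ptprc, which encodes CD45, had a UMI in 85.7% of Control and 85.2% of IR cells. The labels also name a CD11b+Ly6Chi cell type, but T, NK and dendritic cell markers were abundant in both libraries, and fibroblast markers, of a lineage that lacks CD45, gated 71 Control and 70 IR cells. Cells were assigned to gates by marker UMIs in cells thinned to 1000 UMIs. The monocyte gate held 430 Control and 720 IR cells, the macrophage gate 1792 and 485, the neutrophil gate 37 and 257, the T cell gate 411 and 254, the NK cell gate 249 and 399, the conventional dendritic cell (DC) gate 120 and 80 and the mature DC gate 134 and 156. The libraries shared 6 cell barcodes. Levels are given in CPM, a gene's UMIs over all UMIs of the gate on the usual scale of library-normalized counts.

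All members lie on chromosome 11 (GRCm38) within 264 kb, from 82951349 to 83215154, in the order Slfn5, Slfn9, Slfn8, Slfn2, Slfn1, Slfn4 and Slfn3. Slfn9 and Slfn8 are on the minus strand and the others on the plus strand. Slfn4 (ENSMUSG00000000204) runs from 83175186 to 83190216, with Slfn1 (ENSMUSG00000078763), from 83116849 to 83122670, before it and Slfn3 (ENSMUSG00000018986), from 83191330, after it. The others are Slfn2 (ENSMUSG00000072620), Slfn5 (ENSMUSG00000054404), Slfn8 (ENSMUSG00000035208) and Slfn9 (ENSMUSG00000069793). The longest coding sequences were 1014 bases for Slfn1 and 1137 for Slfn2 (short), 1809 for Slfn4 and 1923 for Slfn3 (intermediate), and 2655 for Slfn5 and 2733 for both Slfn8 and Slfn9 (long). Coding identity was 92.7% between Slfn8 and Slfn9 and 92.2% between Slfn3 and Slfn4, against 71.7% between Slfn1 and Slfn2. Reads of such pairs could be split between the genes, so the last 1000 transcript bases, near which the 3′ reads fall, were cut into windows of 91 bases. None of the 910 windows of Slfn4, Slfn1 or Slfn9 occurred in another gene's transcript, while 43 of Slfn8 were shared with Slfn9 or Slfn10-ps, 11 of Slfn2 and 5 of Slfn3 with Slfn4, and 8 of Slfn5 with Klhl24. Slfn5os is antisense to Slfn5 and overlaps it, and the IR cells held 1 UMI of it and the Control cells none.

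The promoter of Slfn4, the member with the largest IR to Control ratio, is shown first, as the 250 bases before its start on the plus strand, chr11:83174936-83175185, from the RefSeq table of GRCm38.p6. Capitals mark the letters CTTCCTGG. The other lines give 60 bases around the same letters in Slfn1 (chr11:83116721-83116780), Slfn2 (chr11:83065032-83065091) and Slfn3 (chr11:83191263-83191322), and around the core of an interferon-stimulated response element, GAAA, any pair of bases and GAAA again, or the same on the other strand, in Slfn5 (chr11:82951922-82951981, plus strand), Slfn8 (chr11:83020824-83020883, minus strand) and Slfn9 (chr11:82991841-82991900, minus strand).
Slfn4: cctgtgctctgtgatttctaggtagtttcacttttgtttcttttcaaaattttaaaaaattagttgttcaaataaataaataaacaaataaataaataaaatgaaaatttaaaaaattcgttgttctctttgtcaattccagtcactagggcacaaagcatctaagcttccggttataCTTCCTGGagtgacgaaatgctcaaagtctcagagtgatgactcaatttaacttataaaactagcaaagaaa
Slfn1: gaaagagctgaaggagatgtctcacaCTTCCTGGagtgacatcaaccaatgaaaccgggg
Slfn2: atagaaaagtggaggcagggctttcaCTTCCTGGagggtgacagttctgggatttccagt
Slfn3: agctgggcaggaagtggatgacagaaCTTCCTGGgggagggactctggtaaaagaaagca
Slfn5: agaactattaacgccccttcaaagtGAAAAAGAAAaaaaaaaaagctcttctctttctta
Slfn8: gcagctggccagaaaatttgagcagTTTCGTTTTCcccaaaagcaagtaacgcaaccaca
Slfn9: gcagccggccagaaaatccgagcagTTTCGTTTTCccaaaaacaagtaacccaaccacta
The promoter table held every member, with 300 bases each, 250 before and 50 after the start. Both strands were searched, and the motifs were chosen after the sequences had been read. The response element core was found in 3 of 7 members, Slfn5, Slfn8 and Slfn9, and in 3.44% of all 32851 promoters. CTTCCTGG was found in the other 4 members, 72 bases before the start in Slfn4, 73 in Slfn1, 54 in Slfn2 and 41 in Slfn3, and in 4.12% of all promoters. The core of a gamma-activated site, TTCNNNGAA, was found in 0 of 7 members and in 8.30% of promoters. The 2 sets did not overlap and followed the division by length, the long members on one side and the short and intermediate ones on the other. A match is a description of letters in this window and not a binding site.

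Slfn4 had the largest IR to Control ratio of the family in the monocyte and macrophage gates. In the monocyte gate it was at 12.5 CPM (95% Poisson interval 8.64 to 17.4, 34 UMIs) in Control against 171 CPM (161 to 181, 1114 UMIs) in IR, a ratio of 13.7, log2 3.78 (exact interval 3.29 to 4.31). It ranked 1 of the 9863 genes with at least 20 UMIs in that gate when ordered by the log2 ratio, IR over Control, of CPM + 10. In the macrophage gate Slfn4 was at 4.93 CPM (3.93 to 6.10, 84 UMIs) in Control against 95.05 CPM (86.9 to 104, 501 UMIs) in IR, a ratio of 19.3, and ranked 5 of 11529. The intervals of the libraries lay far apart in both gates. Slfn4 was highest in the neutrophil gate, at 120.2 CPM (65.7 to 202, 14 UMIs) in Control against 400.1 CPM (371 to 431, 693 UMIs) in IR, a ratio of 3.33 that rests on 37 Control cells with a median of 1891 UMIs. Markers of other cell types moved with Slfn4. In the macrophage gate the 6 monocyte markers summed to 865 CPM in Control against 2150 CPM in IR and the 7 neutrophil markers to 31.5 and 93.1 CPM, and the part of monocyte RNA in the Slfn4 level of that gate was not tested. In the monocyte gate the neutrophil markers summed to 54.0 and 64.5 CPM, of which Csf3r gave 37.8 and 30.1 CPM, while S100a9, another gene of that list, was called higher, at 0.367 CPM (1 UMI) and 8.13 CPM (53 UMIs). In the cells that held 0 neutrophil-marker UMIs Slfn4 was as high: 191 CPM in 501 IR monocyte-gate cells and 109 CPM in 310 IR macrophage-gate cells, against 14.3 and 4.76 CPM in Control.

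The short members were also higher in IR, from higher Control levels and with smaller ratios. Slfn1, a founding member that blocks growth when expressed in thymocytes, was at 54.7 CPM (46.3 to 64.2) in Control against 168 CPM (158 to 178) in IR in the monocyte gate, a ratio of 3.07. In the macrophage gate Slfn1 was at 28.9 CPM (26.4 to 31.6) and 130 CPM (121 to 140), a ratio of 4.51. Its ratio was smaller than that of Slfn4 in each of these gates, with intervals that did not overlap. Slfn2, the gene of T cell and monocyte quiescence, gave more Schlafen UMIs than any other member in 7 of the 8 gates drawn in both libraries, the exception being the fibroblast gate of Control. It was at 386 CPM (364 to 411) in Control against 723 CPM (703 to 744) in IR in the monocyte gate, and at 213 CPM (206 to 219.7) and 442 CPM (425 to 461) in the macrophage gate. The ratios were 1.87 and 2.08, so that only the macrophage gate passed the threshold of 2-fold with intervals that do not overlap, which is called higher below. These calls turned with the processing: Slfn2 passed 2-fold in the monocyte gate, at log2 1.02, 1.02 and 1.11, with at least 2000 UMIs per cell, at most 10% mitochondrial UMIs or gates on all UMIs, and missed it in the macrophage gate, at 0.97, when mitochondrial and ribosomal UMIs were left out of the total. In the neutrophil gate Slfn1 was at 223 and 494 CPM and Slfn2 at 464 and 976 CPM, ratios of 2.21 and 2.11 with separate intervals.

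The long members divided among themselves. Slfn5, a nuclear member studied for its part in interferon signalling, was at 136 CPM (123 to 151) in Control against 263 CPM (250.3 to 275) in IR in the monocyte gate, a ratio of 1.93, and at 39.3 CPM (36.4 to 42.4) and 139 CPM (129 to 149) in the macrophage gate, a ratio of 3.53. Slfn8 was at 31.2 and 65.1 CPM in the monocyte gate and at 13.6 and 44.8 CPM in the macrophage gate, ratios of 2.09 and 3.30, both called. Slfn9, the closest relative of Slfn8 by sequence, was at 8.44 CPM (5.35 to 12.7) and 19.5 CPM (16.2 to 23.2) in the monocyte gate, a ratio of 2.31, but with the monocyte gate set by Ccr2, Chil3, Hp, Vcan and F13a1 its log2 ratio was 0.53 (-0.30 to 1.41) and the call was lost. In the macrophage gate Slfn9 was at 9.68 CPM (8.26 to 11.3) in Control against 12.7 CPM (9.85 to 16.1) in IR, and these intervals overlapped. Over all cells of that gate the log2 ratio of Slfn9 was 0.39 (-0.04 to 0.81), against 1.72 (1.46 to 1.99) for Slfn8. Among its non-cycling cells, as defined below, the Slfn9 intervals were separate. They ran from 4.38 to 7.19 around 5.66 CPM for Control, and from 8.96 to 15.4 around 11.9 CPM for IR. Among its cycling cells, only 14 of them in IR, the Slfn9 intervals overlapped. Slfn3, the intermediate relative of Slfn4, had 31 UMIs over all Control cells and 55 over all IR cells, at most 17 in any gate. Its Poisson intervals overlapped in every gate, while those over all cells, 0.746 CPM (0.507 to 1.06) and 1.45 CPM (1.09 to 1.89), did not. In the T cell gate, with 0 and 6 UMIs, the exact interval of the log2 ratio began at 0.42. With so few UMIs no difference of Slfn3 is read from single gates. Slfn14 and Slfnl1, outside the 7, had 1 UMI and 0 UMIs over both libraries.

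**Figure D1:**
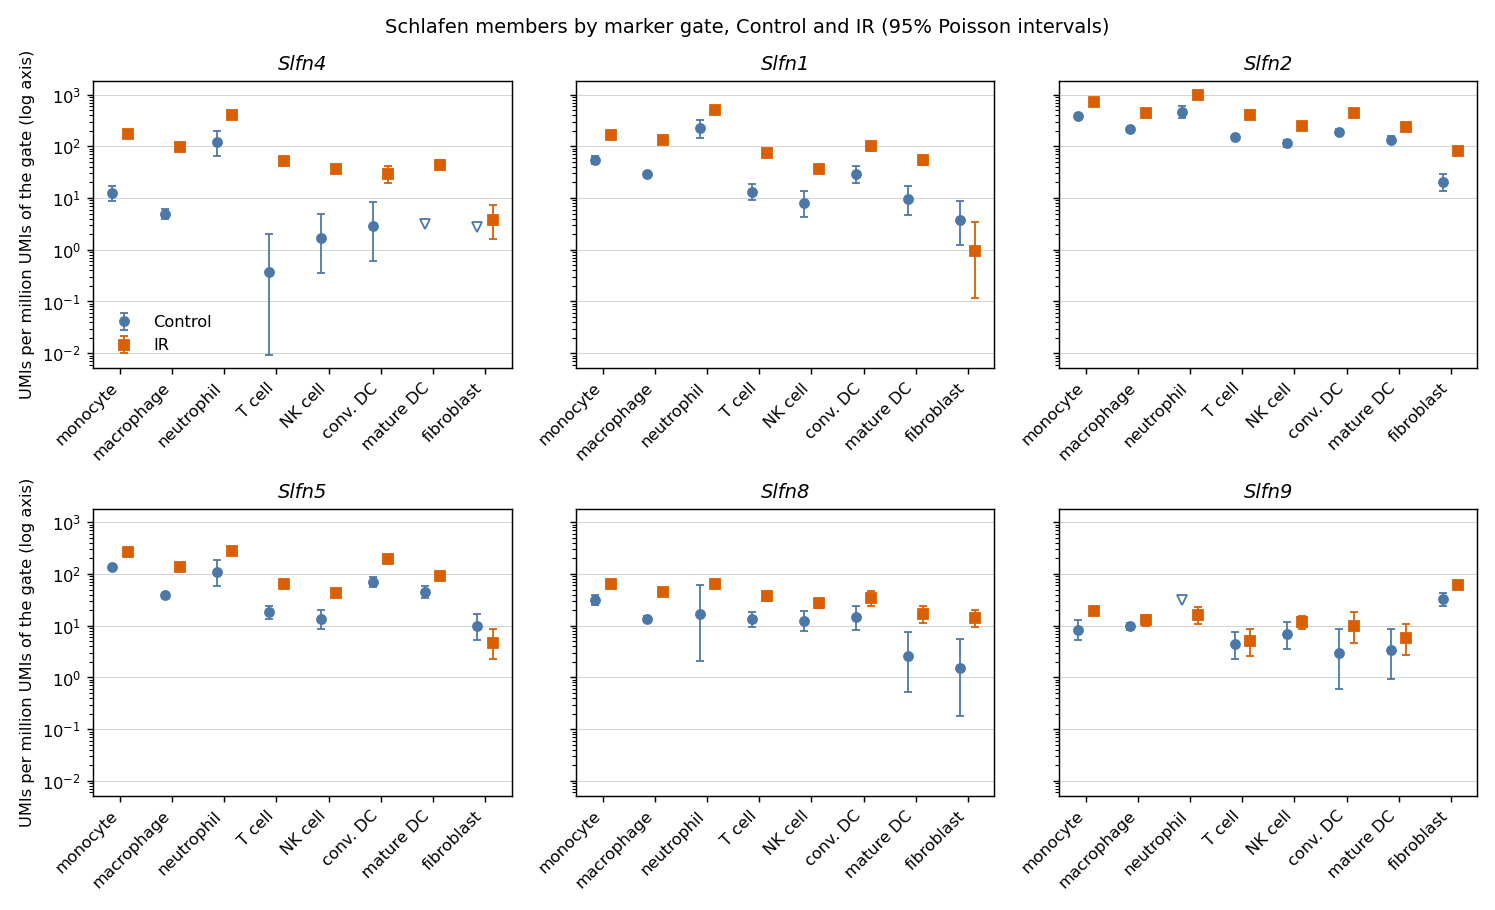
CPM of 6 members (panels) in 8 marker gates (x axis), on a log axis, for Control (circles) and IR (squares), with 95% Poisson intervals; an open triangle is the upper limit of a gate with 0 UMIs. Slfn4 in the monocyte gate stood at 12.5 CPM in Control against 171 CPM in IR, and Slfn9 was highest in the fibroblast gate, at 32.6 and 60.9 CPM.

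The make-up of the family shifted toward Slfn4. Of all Schlafen UMIs, Slfn4 gave 1.98% in Control and 12.1% in IR in the monocyte gate and 1.59% and 11.0% in the macrophage gate. The share of Slfn2 went from 61.3% to 51.3% and from 68.6% to 51.1%. The summed level of the 7 members was 630 CPM in Control against 1410 CPM in IR in the monocyte gate and 310 and 865 CPM in the macrophage gate.

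**Figure D2:**
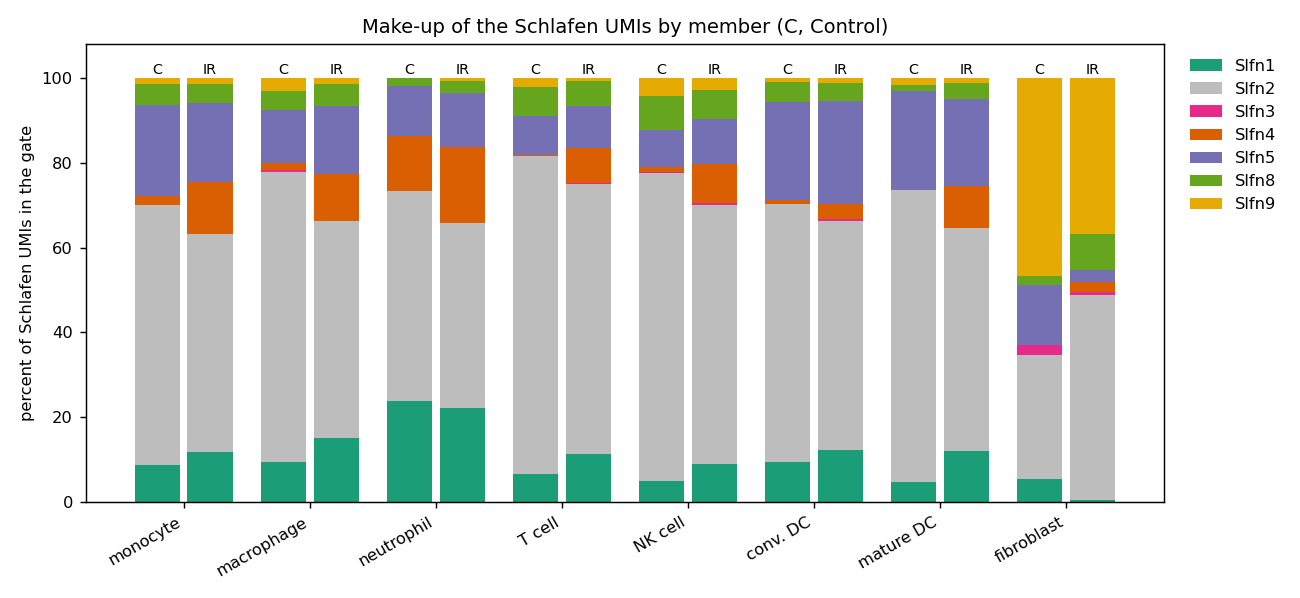
Percent of all Schlafen UMIs (y axis) that each member gives in 8 gates (x axis), with Control (C) and IR side by side. The Slfn4 band widens from 1.98% to 12.1% in the monocyte gate, and Slfn9 gives 46.7% and 36.8% in the fibroblast gate.

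Members called higher numbered 4 of the 6 with at least 20 UMIs in the monocyte gate, where 1.61% of all genes were called higher, and 5 of 7 in the macrophage gate (2.57%). They were 4 of 6 in the neutrophil gate (1.99%), 5 of 6 in the T cell gate (2.6%), 5 of 6 in the NK cell gate (1.84%), 4 of 5 in the conventional DC gate (1.63%), 4 of 5 in the mature DC gate (2.16%) and 2 of 4 in the fibroblast gate (1.73%). None was called lower in any of these gates, where the share of all genes called lower was 0.973%, 3.43%, 2.02%, 0.729%, 0.939%, 1.59%, 1.2% and 2.06% in the same order. Since the members were known to differ before they were listed, nothing is read from these counts. Among 20 genes of the interferon response, 14 were called higher in the monocyte gate and 17 in the macrophage gate, and none lower. Isg15, the ubiquitin-like protein conjugated in this response, was at 191 and 1033 CPM in the monocyte gate, and Irf7, the factor that amplifies type I interferon, at 157 and 586 CPM. The median of log2(CPM + 10) ratios over the list was 1.21 in the monocyte gate and 1.47 in the macrophage gate, beside 0.89 and 1.22 for the Schlafen members and -0.04 for all genes in both gates. Of 10 genes of interferon supply and reception, 8 of which reached 20 UMIs in the monocyte gate, Ifnb1 alone was called higher in the monocyte gate, with 39 UMIs in IR and none in Control. Ifng alone was called lower in the macrophage gate, at 13.9 and 6.26 CPM. Ifng was at 226 and 141 CPM in the T cell gate, and at 51.1 and 115 CPM in droplets that held no cell. The part of RNA from outside the cells in the macrophage-gate level of Ifng was not tested. The receptor genes Ifnar1, at 66.1 and 80.4 CPM, and Ifnar2, at 133 and 166 CPM, were not called in the monocyte gate.

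In the lymphoid and dendritic gates the members differed in how far their level stayed in cells with 0 UMIs of neutrophil and macrophage markers. Slfn4 was at 0.367 CPM (1 UMI) in Control against 52.7 CPM (43.9 to 62.7, 126 UMIs) in IR in the T cell gate, and at 1.71 CPM (3 UMIs) and 37.0 CPM (31.3 to 43.3, 152 UMIs) in the NK cell gate. The log2 ratios, from so few Control UMIs, were 7.17 (4.66 to 12.5) and 4.43 (2.86 to 6.72). In the mature DC gate Slfn4 had no UMI in Control, with an interval of 0 to 3.17 CPM, and 43.8 CPM (34.5 to 54.9) in IR, and in the conventional DC gate it was at 2.92 CPM (3 UMIs) and 28.6 CPM (29 UMIs). These UMIs sat in few cells: the tenth of IR cells with the most Slfn4 UMIs held 89.7% of them in the T cell gate and 96.7% in the NK cell gate, against 51.9% in the monocyte gate. The 7 neutrophil markers moved with Slfn4, from 14.3 to 80.7 CPM in the T cell gate and from 11.4 to 41.4 CPM in the NK cell gate, with 1 and 3 of them at 0 UMIs in Control and none in IR. The 6 macrophage markers summed to 661 and 527 CPM in the T cell gate and to 426 and 385 CPM in the NK cell gate. The 6 monocyte markers, among them Ly6c2 and Plac8, which T and NK cells also express, summed to 1334 and 2511 CPM in the T cell gate and to 1392 and 1859 CPM in the NK cell gate. In IR cells with 0 UMIs of the neutrophil and macrophage lists, Slfn4 was at 12.6 CPM (6.52 to 22.1, 12 UMIs in 145 cells) in the T cell gate and at 3.68 CPM (1.59 to 7.26, 8 UMIs in 259 cells) in the NK cell gate, with 0 UMIs in Control. The Control interval of 0 to 3.79 CPM in those T-gate cells lay below the IR interval, and that of 0 to 5.32 CPM in the NK-gate cells overlapped it. In the mature and conventional DC gates such cells held 2 Slfn4 UMIs each in IR. The monocyte markers were required to be at 0 in the mature DC gate only, and a cell with 0 UMIs of a list may still hold RNA of that source. The part of neutrophil and monocyte RNA in the Slfn4 level of these gates was not tested.

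The intervals of Slfn2 stayed apart in T-gate and NK-gate cells with 0 UMIs of the neutrophil and macrophage lists, and those of Slfn1 did so in the T cell gate only. Slfn1 was at 8.00 and 36.5 CPM over all NK-gate cells, and at 0 and 6 UMIs, the latter 2.76 CPM, in the cells without UMIs of these lists. In the T cell gate Slfn1 was at 13.2 and 73.2 CPM over all cells and still at 12.3 CPM (6.36 to 21.5) and 47.3 CPM (34.5 to 63.3) in those cells. Slfn2 in the T cell gate was at 149 CPM (135 to 164) and 408 CPM (383 to 434) over all cells and at 115 CPM (94.6 to 138) and 281 CPM (248 to 317) in the cells without UMIs of these lists. In the NK cell gate Slfn2 was at 114 and 245 CPM over all cells and at 90.9 CPM (69.8 to 116) and 154 CPM (138 to 171) in those cells, so that its log2 ratio went from 1.10 to 0.76 (0.37 to 1.17). Slfn2 in the conventional DC gate was at 188 and 441 CPM over all cells and at 216 and 444 CPM in those cells. Slfn1 in the conventional DC gate was at 29.2 and 100 CPM over all cells, but at 53.2 CPM (29.1 to 89.2) and 42.5 CPM (25.2 to 67.2) in those cells. Slfn5 in the NK cell gate was at 13.7 and 43.1 CPM over all cells and at 2.88 and 13.8 CPM in those cells. RNA outside cells also carried the members: in droplets with at most 67 UMIs in Control and 40 in IR, Slfn4 was at 7.90 CPM (4.21 to 13.5) and 141 CPM (120 to 165). Scaled by C1q genes, an estimate of such RNA came to 45.2% of the Slfn4 level in the IR T cell gate and 51.7% in the NK cell gate. For Slfn2 it came to 17.5% and 23.4%. Scaled by lymphoid genes, the estimate came to 6.87% of Slfn4 in the IR monocyte gate and 14.8% in the macrophage gate. Gating had set aside T-gate and NK-gate cells rich in macrophage markers, and monocyte-gate cells with T or NK cell markers. These estimates are therefore not upper limits.

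**Figure D3:**
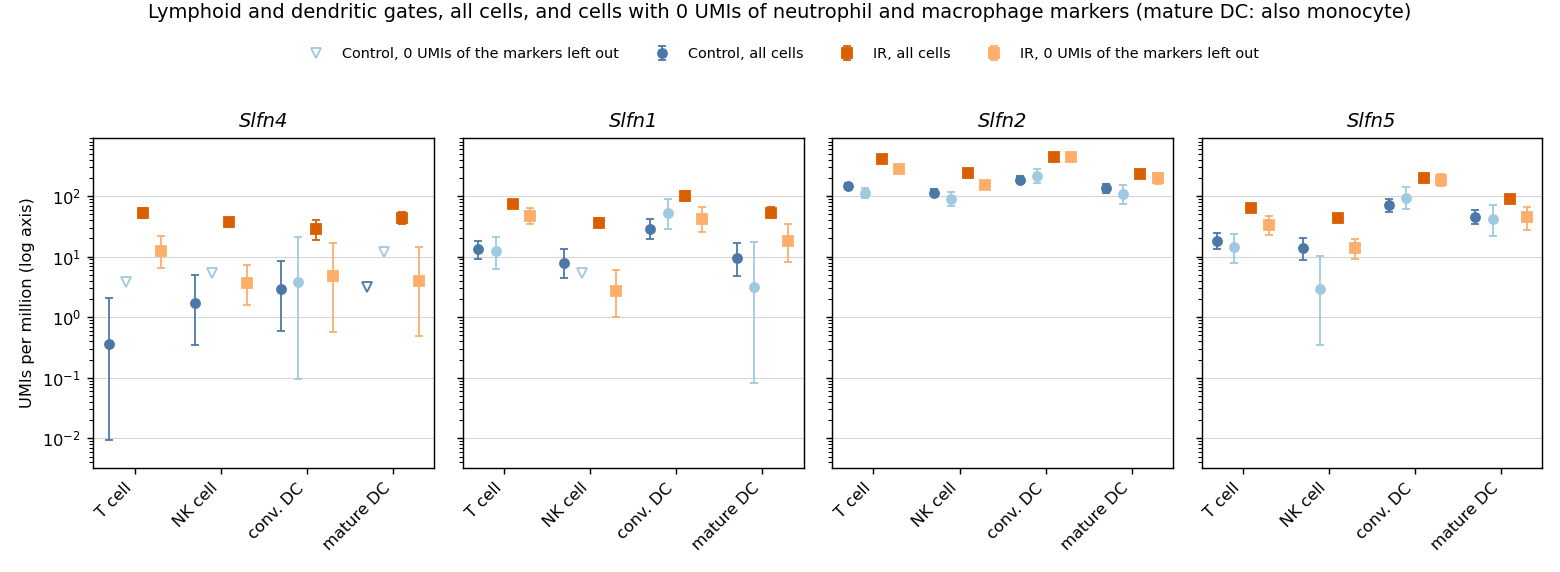
CPM on a log axis of Slfn4, Slfn1, Slfn2 and Slfn5 in the T cell, NK cell, conventional DC and mature DC gates, over all cells and over the cells with 0 UMIs of neutrophil and macrophage markers (for mature DCs also of monocyte markers), in Control (circles) and IR (squares), with 95% Poisson intervals; open triangles are upper limits at 0 UMIs. Slfn4 in the IR NK cell gate drops from 37.0 to 3.68 CPM, and Slfn2 in the IR T cell gate goes from 408 to 281 CPM.

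Within the T cell gate the members were split by Cd8a, Cd8b1, Cd4 and Foxp3. Slfn2 was at 134 CPM in 190 Control cells and 396 CPM in 110 IR cells that held Cd8a or Cd8b1 but lacked Cd4. It was at 168 and 534 CPM in 51 and 28 cells with Cd4 alone, and at 201 and 503 CPM in 41 and 20 cells with Foxp3, the regulatory T cell factor. The Control and IR intervals of Slfn2 were separate in all 3 subsets. Slfn8 in the Foxp3 cells was at 23.2 CPM (8.51 to 50.5) and 96.2 CPM (56.0 to 154), and in the Cd4 cells at 36.8 and 42.2 CPM with overlapping intervals.

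The fibroblast gate had its own pattern. Slfn9 was its leading member in Control, at 32.6 CPM (23.6 to 43.9, 43 UMIs), and stood at 60.9 CPM (50.9 to 72.4, 129 UMIs) in IR, a ratio of 1.87 with separate intervals. Cycling cells, as defined below, made up 31.0% of this gate in Control and 27.1% in IR. In its 43 non-cycling Control cells Slfn9 did not lead, at 11.98 CPM (7 UMIs). There Slfn2 was at 24.0 CPM (14 UMIs) and Slfn5 at 20.5 CPM (12 UMIs), with overlapping intervals. The part of cycling in the Slfn9 level was not tested. Slfn2 was at 20.5 CPM (13.5 to 29.8) and 79.8 CPM (68.2 to 92.8), and Slfn8 at 1.52 CPM (2 UMIs) and 14.2 CPM (30 UMIs), a log2 ratio of 3.22 (1.25 to 6.34). Slfn1 had 5 and 2 UMIs, Slfn4 0 and 8, and Slfn5, at 9.85 and 4.72 CPM, had overlapping intervals. In these cells 19 of 20 interferon response genes were called higher, Isg15 from 65.2 to 891 CPM. A single cell held 37.0% of the 27 Slfn2 UMIs of Control and 17.8% of the 169 of IR. Macrophage markers summed to 172 CPM in Control against 21.2 CPM in IR, and their part in these levels was not tested. In the fibroblast-gate cells with 0 UMIs of 19 myeloid markers, 23 in Control and 26 in IR, Slfn2 had 0 and 19 UMIs and Slfn9 3 and 27.

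The libraries also differed in their mix of cells, so the change over all cells was split. Over all cells Slfn4 was at 5.30 CPM in Control against 102 CPM in IR, a log2 ratio of 4.27. With the IR levels of each gate at the Control mix it was at 88.6 CPM, log2 4.06, and with the Control levels at the IR mix at 10.7 CPM, log2 1.02. For Slfn2 the 3 log2 values were 1.22, 1.14 and 0.11, for Slfn1 2.07, 1.96 and 0.39, and for Slfn5 1.59, 1.5 and 0.31. With the monocyte and macrophage gates as 1 class the mix alone gave -0.05 for Slfn2 and -0.04 for Slfn5, so the direction of this small part turned, and 0.88 for Slfn4. In Control the macrophage gate gave 38.2% of the 220 Slfn4 UMIs, and in IR the monocyte gate gave 28.9% of 3858 and the neutrophil gate 18.0%. Cells in no gate gave 25% and 20.5%.

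Cells were then grouped by their UMIs of the 20 interferon response genes per 1000 UMIs, and the members set apart in how far this count went with their level. In the Control monocyte gate Slfn4 was at 1.21 CPM (1 UMI) in the 116 cells with 0 such UMIs, 8.41 CPM with 1 to 2, 24.9 CPM with 3 to 5 and 36.0 CPM with 6 or more. In the IR monocyte gate the same groups stood at 34.0, 53.0, 144 and 319 CPM. Slfn4 was thus higher in IR in each of these 4 groups, by log2 2.54 (1.74 to 3.47) at 3 to 5 UMIs and by 3.15 (2.30 to 4.16) at 6 or more. Slfn5 also went up with the count, through 41.2, 102, 174 and 448 CPM in Control and 89.7, 121, 218 and 452 CPM in IR. It was higher in IR in the cells with 0 interferon UMIs, log2 1.12 (0.49 to 1.78), while the intervals of its ratio included 0 in the other groups at this depth. The log2 ratio of Slfn5 was 0.32 (-0.01 to 0.67) at 3 to 5 UMIs and 0.01 (-0.24 to 0.28) at 6 or more, and the interval of Slfn4 lay above it in both groups. Slfn8 and Slfn9 at 6 or more UMIs had log2 ratios of 0.52 (-0.11 to 1.22) and -0.07 (-0.95 to 0.93). Slfn1 at 6 or more UMIs was at 121 and 261 CPM and Slfn2 at 641 and 938 CPM, log2 ratios of 1.11 (0.63 to 1.63) and 0.55 (0.34 to 0.77). The cells with 6 or more UMIs made up 13.02% of the Control monocyte gate and 38.9% of the IR one, and they held a mean of 9.70 and 13.9 interferon UMIs, so the groups are not fully matched there. Counted per 2000 UMIs, which places other cells in the groups, the log2 ratio of Slfn5 was 0.46 (0.09 to 0.84) at 3 to 5 UMIs and 0.21 (0.00088 to 0.42) at 6 or more, that of Slfn8 at 6 or more was 0.61 (0.13 to 1.13), and that of Slfn4 was 2.38 (1.26 to 3.74) and 3.26 (2.60 to 4.02), so the intervals of Slfn5 then lay above 0 and still below those of Slfn4. At 0 UMIs per 2000 only 13 IR cells were left, with no Slfn4 UMI. Groups with low counts per 1000 UMIs may thus not be fully matched either. At 3 to 5 UMIs per 1000 the means were 3.70 and 3.91, and at 1 to 2 UMIs 1.44 and 1.41.

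In the macrophage gate the intervals of the log2 ratio lay above 0 in all 4 groups for Slfn4, Slfn1, Slfn2, Slfn5 and Slfn8. Per 2000 UMIs they did so for Slfn4 and Slfn2, while the group with 0 UMIs, of 25 IR cells, included 0 for Slfn1 (-0.70 to 1.64), Slfn5 (-1.30 to 1.73) and Slfn8 (-0.81 to 2.30), and Slfn8 also did at 1 to 2 UMIs (-0.53 to 1.46). Slfn4 was at 2.07, 4.71, 10.3 and 20.6 CPM in Control and 20.5, 36.9, 82.4 and 239 CPM in IR over the same 4 groups. Slfn5 was at 75.0 CPM in Control against 158 CPM in IR at 3 to 5 UMIs, a log2 ratio of 1.08 (0.78 to 1.38), where that of Slfn4 was 3.0 (2.33 to 3.74). Slfn9 at 1 to 2 UMIs was at 10.4 CPM in Control against 4.54 CPM in IR, the only group of either gate in which a member was lower in IR with an interval of the log2 ratio below 0 (-2.46 to -0.14). Per 2000 UMIs that interval, from 2 IR UMIs, included 0 (-4.76 to 0.24).

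**Figure D4:**
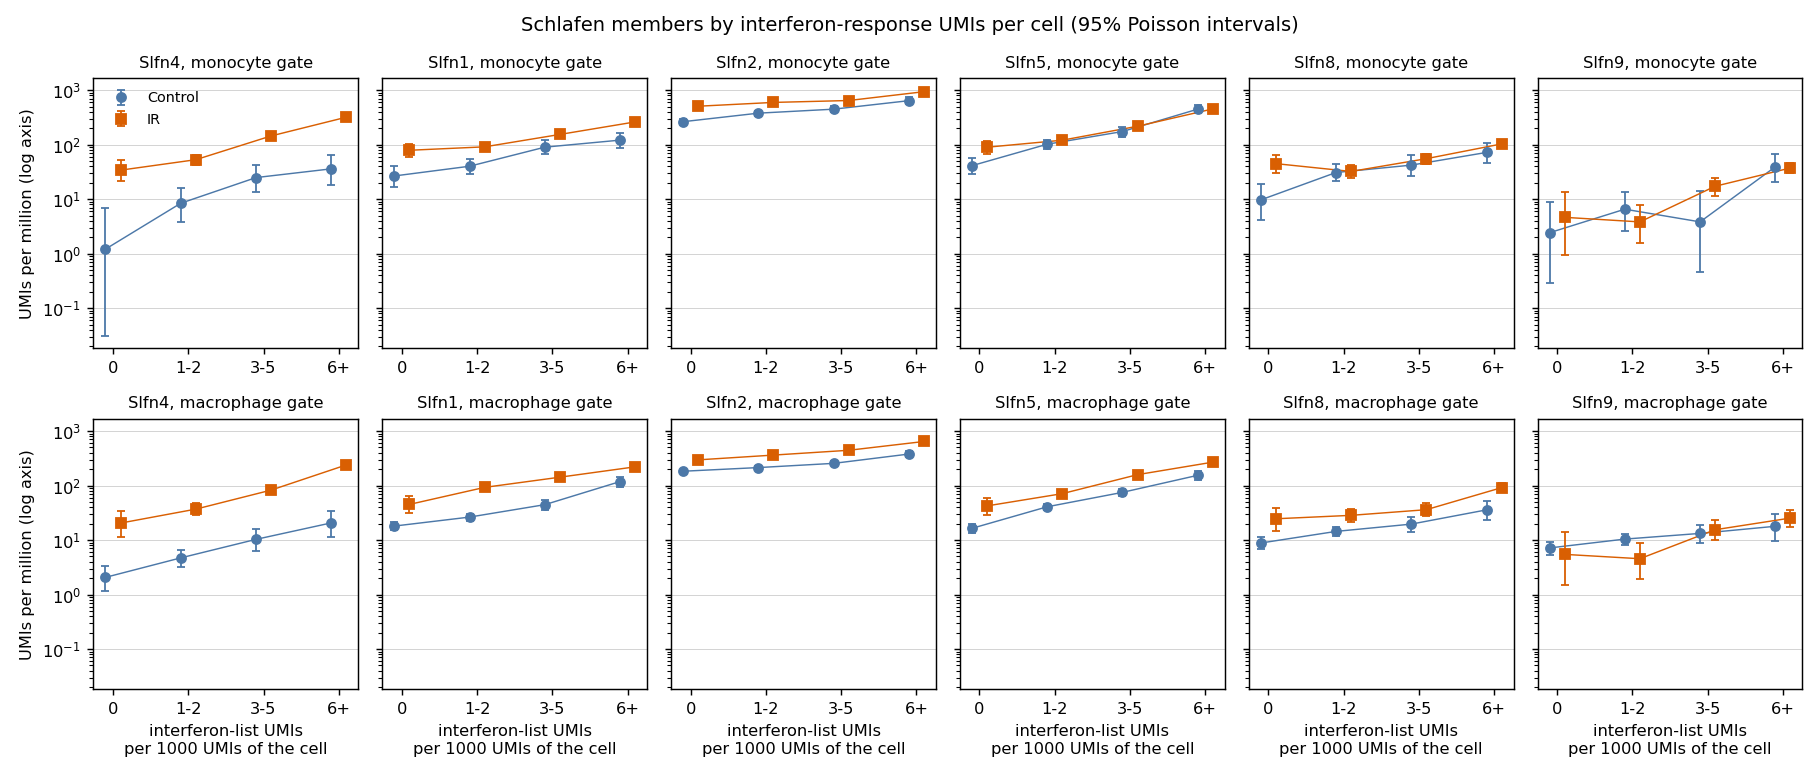
CPM on a log axis of 6 members in monocyte-gate (top) and macrophage-gate cells (bottom) against the cell's UMIs of 20 interferon response genes per 1000 UMIs, for Control (circles) and IR (squares), with 95% Poisson intervals. In the monocyte gate the Slfn5 lines meet, at 448 and 452 CPM for 6 or more UMIs, where the Slfn4 lines are at 36.0 and 319 CPM.

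Cycling cells were those with at least 2 UMIs of 11 proliferation genes per 1000 UMIs, and cells with none were their counterpart. In the Control macrophage gate, with 236 cycling and 1344 non-cycling cells, Slfn9 and Slfn5 went opposite ways. Slfn9 was at 20.8 CPM (16.0 to 26.5) in cycling and 5.66 CPM (4.38 to 7.19) in non-cycling cells, log2 1.88 (1.36 to 2.39). Slfn5 was at 11.4 CPM (7.91 to 15.8) and 49.4 CPM (45.5 to 53.6), log2 -2.12 (-2.66 to -1.63). Slfn8, at 8.76 and 14.8 CPM, was lower in cycling cells, log2 -0.75 (-1.40 to -0.16), as were Slfn1, at 19.8 and 32.8 CPM, and Slfn2, at 167 and 228 CPM. The interval of Slfn4, -0.91 (-2.10 to 0.10), included 0. Slfn3 had 8 UMIs in cycling and 9 in non-cycling cells, log2 1.77 (0.20 to 3.32). With cycling set at 3 or more UMIs per 2000, these weaker readings turned: the interval of Slfn4 then lay below 0, at -1.37 (-2.65 to -0.30), and those of Slfn3 (-0.18 to 3.30) and Slfn8 (-1.12 to 0.03) included 0, while Slfn9 was at 2.04 (1.48 to 2.61) and Slfn5 at -2.09 (-2.58 to -1.63). The same signs for Slfn9 and Slfn5 were found in the IR macrophage gate, with only 14 cycling cells: 34.3 and 11.9 CPM for Slfn9 and 30.5 and 150 CPM for Slfn5, with intervals on one side of 0. Slfn4 in that gate was at 7.63 CPM (2 UMIs) in cycling and 104 CPM in non-cycling cells, log2 -3.76 (-6.81 to -1.90). At 2000 UMIs its log2 ratio there was -3.38 (-5.67 to -1.82), from 3 UMIs in cycling cells. In the fibroblast gate Slfn9 was at 40.5 CPM in cycling and 11.98 CPM in non-cycling Control cells and at 78.3 and 28.4 CPM in IR. In the IR NK cell gate, with 28 cycling cells, Slfn2 was at 64.4 and 279 CPM, log2 -2.11 (-2.60 to -1.67), and Slfn5 at 9.20 and 51.1 CPM, while the interval of Slfn9, 0.58 (-0.55 to 1.59), included 0. At 2000 UMIs the NK-gate differences were smaller, with Slfn2 at 131 and 273 CPM, log2 -1.05 (-1.40 to -0.72), and Slfn5 at 25.7 and 49.5 CPM, log2 -0.95 (-1.80 to -0.20). Cycling cells were 13.2% of the macrophage gate in Control and 2.89% in IR, and 10 of the 11 proliferation genes were called lower in IR there. The part of this in the macrophage-gate ratios of Slfn9, Slfn5 and Slfn4 was not tested.

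**Figure D5:**
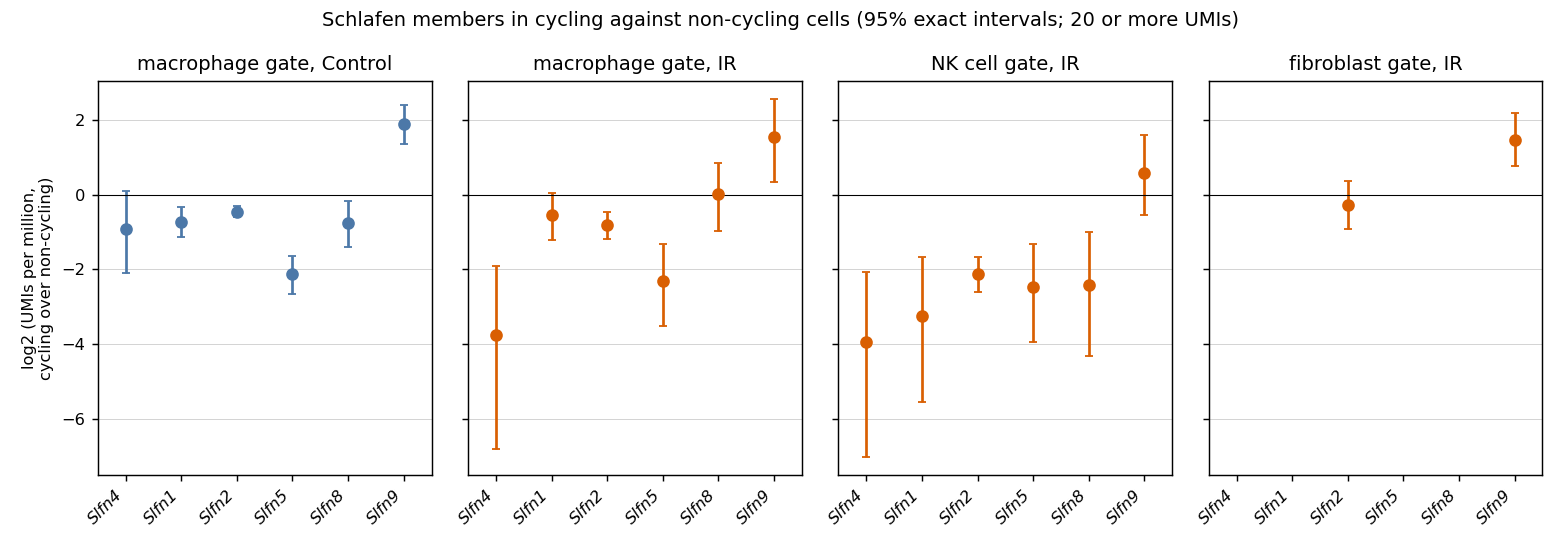
Log2 ratio of CPM in cycling over non-cycling cells for members with at least 20 UMIs, in the Control and IR macrophage gates and the IR NK cell and fibroblast gates, with 95% exact intervals; 0 marks equal levels. Slfn9 lies at 1.88 and Slfn5 at -2.12 in the Control macrophage gate.

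Shares of cells with a UMI were set at 1000 UMIs per cell. A Slfn4 UMI was found in 6 of 430 Control monocyte-gate cells, 1.40% (Clopper-Pearson 0.514 to 3.01), and in 120 of 720 IR cells, 16.7% (14.02 to 19.6). In the macrophage gate the shares were 0.670% (0.346 to 1.17) and 13.2% (10.3 to 16.5), and in the neutrophil gate 13.5% and 35.8%. The T cell gate, taken as a lineage outside the myeloid one, had 0.243% and 4.33%, with median depths of 4718 and 6201.5 UMIs before thinning against 5433 and 8001.5 in the monocyte gate. With all UMIs the shares were 6.74% and 44.9% in the monocyte gate and 3.40% and 39.2% in the macrophage gate. Slfn2 had a UMI at 1000 UMIs in 32.3% and 48.2% of monocyte-gate cells and in 20.5% and 34.4% of macrophage-gate cells.

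Across the 14 points of 7 gates with at least 50 cells in both libraries, each gene's log2(CPM + 10) was correlated with that of Slfn4, among 2841 genes that reached 100 CPM. This rule left out the neutrophil gate, with 37 Control cells, where Slfn4 was highest. The points of a library share its depth and its free RNA, and the values are a description. The 8 most alike were Ifi213 (r = 0.94), Chmp4b (0.92), Irf7 (0.89), Slfn1 (0.89), Rsad2 (0.87), Grina (0.86), Sra1 (0.86) and Oas3 (0.86). Irf7, Rsad2 and Oas3 are on the interferon response list. Of the other members Slfn2 had r = 0.78 and Slfn5 0.75. Slfn8 (0.87), Slfn3 (0.30) and Slfn9 (0.027) stayed below 100 CPM and so were not among the genes ranked.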

How the data were processed

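Droplet-based 3′ single-cell libraries of sorted tumor cells were counted by the authors with Cell Ranger 6.0.1 on mm10, per the labels, and the deposited values are raw UMI counts for every barcode. Cells with at least 1000 UMIs and at most 25% mitochondrial UMIs were kept. Total counts were 48593879 in Control and 42406461 in IR, of which 41533178 and 37848469 were in cells. The members, lists and gates were chosen with earlier results of these data known, and the gate rule after the counts had been read. Gates required at least 2 marker UMIs of a single list at 1000 UMIs per cell, or 3 UMIs of 2 different markers for neutrophils. Cells positive for several lists, or with at least as many macrophage-marker UMIs as UMIs of their own list, were set aside as mixed (499 and 222). The monocyte gate allowed no UMI of the lists of other lineages, macrophages apart, while the macrophage gate allowed a single such UMI. Cells that met no rule were left ungated (887 and 697), among them cells with monocyte markers and a stray UMI of another list. B cells, plasmacytoid DCs and basophils or mast cells were too few to compare. Doublets were otherwise left in, and removal of the top 6% by Scrublet was an alternative.

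UMIs were summed per gate and library. Intervals were 95% Poisson, Clopper-Pearson or exact conditional ones. A gene with at least 20 UMIs over both libraries was called when it differed by at least 2-fold and the intervals did not overlap. The genes named were the members, the 8 genes most like Slfn4, and examples from the lists that were picked after their values were seen. Calculations used Python 3.11.15, NumPy 2.4.6, SciPy 1.17.1, pandas 2.3.3, scanpy 1.11.5 and Biopython 1.88, and edgeR 4.0.16 for TMM factors. The interval and call functions were tested on simulated counts. Other cell filters, gates, depths, totals and scalings were tried as alternatives.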

Additional observations from a re-analysis of the deposited data

Results flagged for a closer look

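Droplets that held no cell carried Schlafen UMIs in both libraries, a signal outside the gates. Slfn4 was at 7.90 CPM in Control and 141 CPM in IR, Slfn1 at 29.8 and 69.7 CPM, Slfn2 at 242 and 423 CPM, and Slfn5 at 41.3 and 93.3 CPM. The ratio of Slfn4 in these droplets was 17.9, beside 19.2 over all cells.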

How the results depend on the processing

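Of 491 log2 ratios recomputed under the alternatives, 486 kept their direction. No paired analysis was possible because each group has 1 library. With at least 2000 UMIs per cell Slfn2 had log2 ratios of 1.02 in the monocyte and 1.15 in the macrophage gate. With at most 10% mitochondrial UMIs Slfn2 was at 1.02 and Slfn4 at 3.10 in the monocyte gate. Without mitochondrial and ribosomal UMIs Slfn2 was at 0.97 in the macrophage gate. With other monocyte markers Slfn9 was at 0.53 in the monocyte gate, and Slfn2 at 1.22 and Slfn4 at 4.64 in the macrophage gate. So Slfn9 lost its monocyte-gate call, Slfn2 lost its macrophage-gate call without mitochondrial and ribosomal UMIs, and Slfn2 passed 2-fold in the monocyte gate under 3 alternatives. With gates on all UMIs Slfn2 was at 1.11 and Slfn8 at 1.47 in the monocyte gate, and Slfn1 at 2.41, Slfn5 at 1.47, Slfn8 at 1.23 and Slfn9 at -0.30 in the macrophage gate. On the log2(CPM + 10) scale Slfn4 was at 3.01 in the monocyte gate, and Slfn1 at 1.85, Slfn4 at 2.81, Slfn5 at 1.59 and Slfn8 at 1.22 in the macrophage gate, since the added constant shrinks ratios of low levels. After subtraction of free RNA Slfn2 was at 1.18 in the macrophage gate. In cells without UMIs of other myeloid markers, an alternative chosen after seeing the data, Slfn9 was at -0.21 in the macrophage gate and Slfn1 reversed to -0.32 in the conventional DC gate. With the monocyte and macrophage gates as 1 class, the log2 ratios at the Control mix were 2.06 for Slfn1, 1.31 for Slfn2, 4.29 for Slfn4 and 1.74 for Slfn5. With interferon counts at 2000 UMIs per cell Slfn5 was at 0.51 in macrophage-gate cells with 3 to 5 UMIs. Counting interferon and cycling genes at 2000 UMIs also moved several intervals across 0, as given beside those results. By Spearman's rho, 2 of the 8 genes most like Slfn4 were the same. The cause was not tested for the other shifts. The number of libraries, 1 per group, limits every comparison, and members under 20 UMIs in a gate could not be compared.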
